A study of Mus musculus with 4 samples.

Results

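The genes described here are 10 genes of extracellular purine signaling in bone marrow (BM) macrophages, made up of the receptors Gpr34, P2ry6, P2ry12, P2ry14, P2rx4, P2rx7, Adora2a and Adora2b and the ectonucleotidases Entpd1 and Nt5e. They were matched by symbol, and all 10 were among the 31053 genes of the count files. The set was chosen with the comparison of efferocytic and non-efferocytic BM macrophages already known. The levels of the 10 genes in that comparison are therefore given as a description, and no p-value is given for them. The values that chose them were the CPM and the share of cells with the gene in each library.

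BM macrophages of 4- to 6-week-old male C57BL/6J mice were grown with macrophage colony stimulating factor (M-CSF) and given apoptotic RM1 cells, a prostate cancer cell line of the same mouse strain, which had been killed with UV light and labeled with the dye CFSE. After 16 to 18 h, cells with both the macrophage surface protein F4/80 and the dye were sorted as efferocytic BM macrophages, that is, macrophages that had taken up RM1 material. Cells sorted for F4/80 alone served as non-efferocytic BM macrophages. Each of 2 experiments gave 1 library per group, so that 4 single-cell libraries were compared. The apoptotic cells came from 1 cell line. The study gives a lowest number of mice per group for its experiments as a whole but not the number behind each library. It calls the non-efferocytic cells both non-engulfing cells and macrophages alone, which does not settle whether they had shared a well with RM1 cells.

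Cells release ATP, UDP and related nucleotides when they are stressed or dying, and macrophages read them through P2X receptors, which are ion channels opened by ATP, and P2Y receptors, which are coupled to G proteins. Ectonucleotidases on the cell surface break the nucleotides down, with CD39 (Entpd1) taking ATP and ADP to AMP and CD73 (Nt5e) taking AMP to adenosine, which in turn acts on adenosine receptors. Gpr34 is related in sequence to P2Y receptors but responds to lysophosphatidylserine, a lipid, and together with P2ry12 it is known as a gene of microglia, the macrophages of the brain.

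Levels are given as CPM, the count of unique molecular identifiers (UMIs) of a gene out of every 1000000 UMIs that a library held in its cells, and a ratio is efferocytic over non-efferocytic within an experiment. The intervals are exact 95% intervals of the counts, which cover counting error only, and each group had 1 library per experiment. The libraries held 6695 to 13411 cells and 101216659 to 155224183 UMIs in cells. With 3 UMIs taken as the limit of a count of 0, a simpler rule than the exact intervals, this limit stood at 0.0193 to 0.0296 CPM. Efferocytic cells held more UMIs, with a median of 17171 (Experiment 1) and 17475.5 (Experiment 2) against 11146 and 9600 in non-efferocytic cells. CPM give the share of a gene in the RNA of cells. The median log2 fold change over all genes was -0.02 with TMM and 0.60 with scaling by cell number (UMIs per cell). For the 10 genes the ratio per cell is therefore given where its direction differed. For other genes and for markers it is given only in part, so a lower level by CPM need not be lower per cell. Values per cell also depend on which barcodes count as cells. In the non-efferocytic library of Experiment 2, 13411 cells held 138349389 UMIs, and the 10615 kept by the Cell Ranger rule held 133957983. In the efferocytic library of that experiment, 8408 cells held 155224183 UMIs, and the 7921 kept held 154264412. The ratios per cell were not worked out for other sets of cells. In summed counts, a smaller share of cells with a gene and less of its RNA per cell cannot be told apart. The macrophage markers were present in all 4 libraries, with a summed level of 7453 and 6550 CPM in the non-efferocytic libraries, against 5597 and 5114 CPM in the efferocytic ones and 7 of 8 genes lower in both experiments. The 10 neutrophil markers summed to 3074 and 3383 CPM in the non-efferocytic libraries, against 961 and 719 CPM in the efferocytic ones, and all 10 were lower in both. The 5 monocyte markers summed to 68.8 and 77.8 against 26.0 and 15.8 CPM. Of genes listed to look for RM1 RNA, 8 epithelial genes summed to 0.573 and 11.0 against 0.120 and 9.03 CPM, with 3 lower and 0 higher in both experiments. The study describes RM1 as fibroblast-like, so the level of these genes says little about RM1 RNA. The part of these cells in the levels below was not tested beyond the values over macrophage-like clusters alone. Of the barcodes of cells, 14 to 23 were shared between libraries of most pairs, but 118 between the libraries of Experiment 2, where 16.6 would be shared if drawn at random.

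Gpr34 differed most between the groups among the 10 genes. It lies on chromosome X, chrX:13632089-13640858 on the plus strand of GRCm38, within Cask on the opposite strand, with no overlap of their exons. Its level was 24.8 CPM in the non-efferocytic and 3.63 CPM in the efferocytic library of Experiment 1, and 13.2 and 1.69 CPM in those of Experiment 2. The groups did not overlap, and the count intervals of all 4 libraries were separate. The log2 ratio was -2.77 (95% count interval -2.92 to -2.63) in Experiment 1 and -2.97 (-3.16 to -2.78) in Experiment 2, or 6.82-fold and 7.81-fold lower after efferocytosis. Of 10813 genes that averaged 1 CPM or more, 58 (0.536%) had a log2 ratio below -2 in both experiments. Gpr34 was chosen with this comparison known, so nothing is read from its place among them. Scaled to UMIs per cell, Gpr34 was still lower, with log2 ratios of -2.16 and -2.13. The non-efferocytic level itself differed between the experiments, 24.8 against 13.2 CPM.

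The share of cells in which Gpr34 was found differed as well. At 0.0313 to 0.303 UMIs per cell this share follows the level, so it does not separate fewer cells with Gpr34 from less RNA per cell. A UMI of Gpr34 was found in 18.8% of non-efferocytic and 4.90% of efferocytic cells in Experiment 1, and in 9.98% and 2.51% in Experiment 2. At an equal depth of 5000 UMIs per cell, the expected shares were 11.3% and 1.91% in Experiment 1 and 6.47% and 0.896% in Experiment 2, so that the shares lay further apart in ratio at equal depth. As a background, the T and NK-like cells of Experiment 2 held Gpr34 in 0 of 135 cells, which by the exact interval allows up to 2.70%. With a median of 1464 UMIs they were far shallower than the macrophages, so this is a low background. At greater depth in Experiment 1, 10 of 99 neutrophil-like cells (10.1%, median 16373 UMIs) held it. So did 7 of 44 mesenchymal-like cells (15.9%, median 43881.5 UMIs). Cells with at least 2 UMIs of Gpr34 made up 6.82% and 2.45% of non-efferocytic and 1.21% and 0.488% of efferocytic cells, and the largest count in a cell was 10. Barcodes of fewer than 100 UMIs, which hold free RNA, had 13.7 and 9.05 CPM in non-efferocytic libraries and 3.66 and 2.28 CPM in efferocytic libraries. Free RNA thus followed the same order as the cells, lay below the cells in the non-efferocytic libraries, and in the efferocytic libraries was slightly higher, with intervals that overlapped those of the cells. Over the alternatives in cells, free RNA and scaling other than UMIs per cell, the mean log2 ratio of Gpr34 ran from -2.96 to -2.76.

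**Figure D1:**
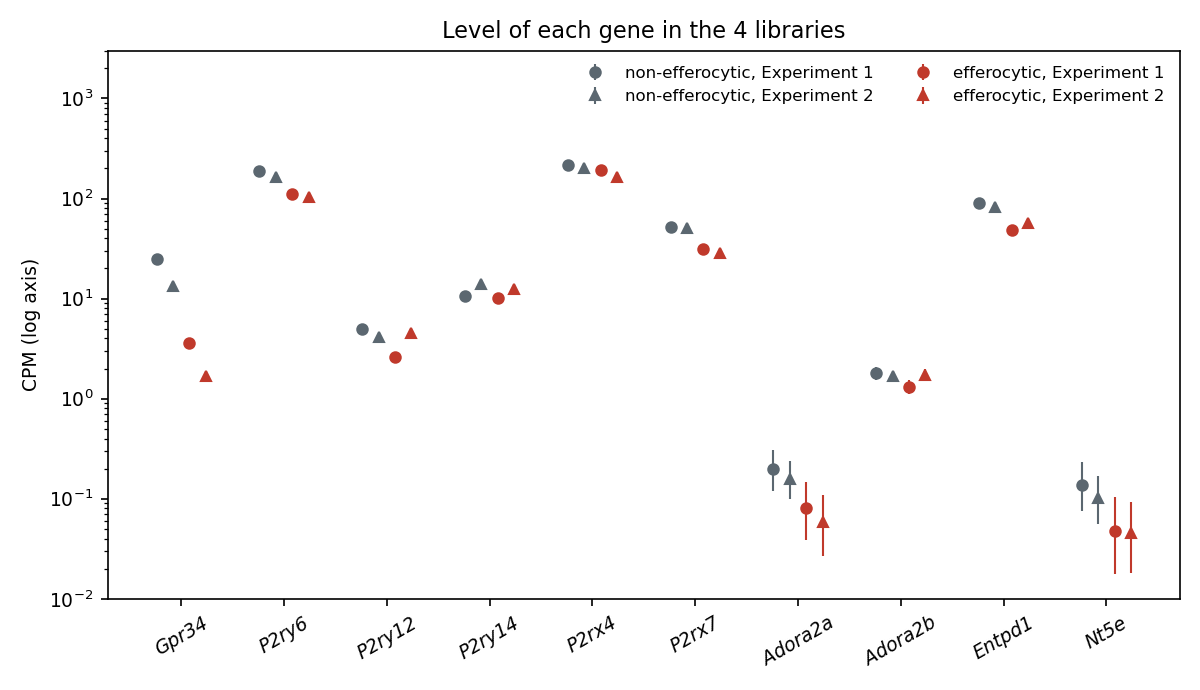
Level of the 10 genes in CPM (log axis) in each of the 4 libraries, with exact 95% count intervals. Gpr34 lies between 13.2 and 24.8 CPM in the non-efferocytic libraries and between 1.69 and 3.63 CPM in the efferocytic ones, while P2ry12, P2ry14 and Adora2b overlap between the groups and Adora2a and Nt5e reach at most 0.198 CPM.

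Among the P2Y receptors, P2ry6, the receptor for UDP that is known to promote phagocytosis in microglia, was lower in both efferocytic libraries by CPM. It lies at chr7:100937630-100974649 on the minus strand. Its level was 187 CPM in the non-efferocytic and 111 CPM in the efferocytic library of Experiment 1, and 163 and 104 CPM in Experiment 2. The groups did not overlap, with log2 ratios of -0.75 (-0.79 to -0.72) and -0.64 (-0.67 to -0.61). Per cell the ratios were -0.14 and 0.20, so the direction differed between the experiments on that scale with the cells kept here. A UMI of P2ry6 was present in 78.5% and 67.6% of non-efferocytic and 73.3% and 74.1% of efferocytic cells. At 5000 UMIs per cell, the shares were 59.7% and 54.8% against 41.2% and 39.7%, lower in both efferocytic libraries. In the far shallower T and NK-like cells 1 of 135 held it, or 0.741%.

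P2ry12, the ADP receptor best known from platelets and microglia, gave opposite ratios in the experiments. Its level was 4.99 CPM (non-efferocytic) and 2.63 CPM (efferocytic) in Experiment 1, and 4.09 and 4.49 CPM in Experiment 2. The groups overlapped, and the log2 ratio was -0.92 (-1.13 to -0.72) in Experiment 1 and 0.13 (-0.03 to 0.30) in Experiment 2, where the interval held 0. Per cell the values were -0.31 and 0.97. In free RNA P2ry12 was at 3.90 and 2.01 CPM in Experiment 1 and at 5.57 and 6.84 CPM in Experiment 2, higher than in the cells of Experiment 2, with intervals that overlapped in the non-efferocytic library. P2ry12 was found in 5.59% and 3.94% of non-efferocytic and 4.47% and 7.34% of efferocytic cells. It lies at chr3:59216272-59262871 on the minus strand, and its exons overlap those of Med12l on the opposite strand. Whether the counting used the strand is not given in the sources used here. Med12l stood at 0.514 and 0.744 CPM in the non-efferocytic libraries, against 0.712 and 1.35 CPM in the efferocytic ones.

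P2ry14, the receptor for UDP-glucose and other UDP-sugars, stayed close to level by CPM. It measured 10.6 CPM (non-efferocytic) and 10.2 CPM (efferocytic) in Experiment 1, and 14.1 and 12.4 CPM in Experiment 2. The log2 ratios were -0.06 (-0.17 to 0.06) and -0.19 (-0.28 to -0.10), and the groups overlapped, while per cell the ratios turned to 0.56 and 0.65. Both values lay near the median of all genes on their scale. The gene lies at chr3:59113855-59153618 on the minus strand, in the same stretch of chromosome 3 as P2ry12, with P2ry13 between them. The gap from P2ry13 to P2ry12 is 5.39 kb. P2ry13, another ADP receptor, had 1.81 and 1.51 CPM in the non-efferocytic libraries, against 1.35 and 2.47 CPM in the efferocytic ones and was not called (log2 fold change 0.28, standard error 0.242, edgeR, adjusted p = 0.392). P2ry12 and P2ry13 both had a lower level in the efferocytic library of Experiment 1 and a higher one in that of Experiment 2.

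The P2X channels are given with the sequence before their start sites, since P2rx7 and P2rx4 lie next to each other on the plus strand of chromosome 5, 16.1 kb apart, and differed in how far they were lower. P2rx7, the ATP-gated channel known for triggering the inflammasome at high ATP, lies at chr5:122643911-122691432 and P2rx4, which opens at lower ATP, at chr5:122707544-122729738. P2rx7 measured 52.4 CPM (non-efferocytic) and 31.2 CPM (efferocytic) in Experiment 1, and 51.0 and 28.5 CPM in Experiment 2. The groups did not overlap, and the log2 ratios were -0.75 (-0.81 to -0.69) and -0.84 (-0.90 to -0.79). Per cell they were -0.14 and -0.00081, so almost level in Experiment 2 with the cells kept here. P2rx4 measured 216 CPM (non-efferocytic) and 194 CPM (efferocytic) in Experiment 1, and 203 and 165 CPM in Experiment 2. The groups did not overlap here either, but the log2 ratios were small, -0.16 (-0.18 to -0.13) and -0.30 (-0.33 to -0.28), and turned to 0.46 and 0.54 per cell. The log2 ratio of P2rx7 was below that of P2rx4 by 0.59 in Experiment 1 and 0.54 in Experiment 2. A UMI of P2rx7 was found in 43.1% and 36.3% of non-efferocytic and 40.2% and 37.5% of efferocytic cells, against 1.48% of the far shallower T and NK-like cells. At 5000 UMIs per cell these became 24.1% and 23.0% against 15.1% and 13.5%. P2rx4 was found in 82.3% and 72.9% against 87.7% and 86.2% of cells, and at 5000 UMIs in 65.1% and 61.7% against 61.2% and 54.7%. In the T and NK-like cells 5 of 135 held P2rx4, or 3.70%. Free RNA held it at 135 and 153 CPM in the non-efferocytic and 117 and 143 CPM in the efferocytic libraries.

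The windows below are the 250 bases before the start site, from RefSeq on GRCm38.p6, printed 5′ to 3′ on the strand of the gene. RefSeq windows were matched for 7 of the 10 genes, 12 windows in all. The motifs searched, on both strands, were those of PU.1 (GAGGAAGT), AP-1 (TGANTCA), the hypoxia response core (ACGTG), the cAMP response element (TGACGTCA, which holds the ACGT of the hypoxia core) and the TATA box (TATAAA). P2rx7 (chr5:122643677-122643926, plus strand) holds an AP-1 match, in capitals, at the end of the window farthest from the start site. A further window of P2rx7 (chr5:122650133-122650382), not printed, holds none of the motifs, nor does that of P2rx4 (chr5:122707294-122707543, plus strand). P2ry12 (chr3:59262986-59263235, minus strand) holds CACGTG, in capitals, in which the hypoxia response core matches on both strands at once. The first transcribed bases after this window were not found in a GENCODE transcript of P2ry12. An AP-1 match stood in 3 of the 12 windows and in 6.75% of 32851 windows of the same length, the hypoxia response core in 1 of 12 and in 16.6% of all. All AP-1 matches lay in windows of P2ry14 and P2rx7, which had more than 1 window each. Some windows of P2ry14 overlap, so the 12 windows do not stand for separate genes. The TATA box matched in 1 of 12 windows and in 12.4% of all, the PU.1 core in 0 of 12 and 2.44%, and the cAMP response element in 0 of 12 and 1.55%. These are matches of letters only. Gpr34, P2ry6 and Adora2a had no entry.
P2rx7: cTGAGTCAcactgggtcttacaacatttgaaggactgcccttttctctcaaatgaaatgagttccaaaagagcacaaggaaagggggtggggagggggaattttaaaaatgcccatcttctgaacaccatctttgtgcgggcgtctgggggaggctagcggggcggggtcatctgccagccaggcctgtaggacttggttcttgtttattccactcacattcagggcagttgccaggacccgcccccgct
P2rx4: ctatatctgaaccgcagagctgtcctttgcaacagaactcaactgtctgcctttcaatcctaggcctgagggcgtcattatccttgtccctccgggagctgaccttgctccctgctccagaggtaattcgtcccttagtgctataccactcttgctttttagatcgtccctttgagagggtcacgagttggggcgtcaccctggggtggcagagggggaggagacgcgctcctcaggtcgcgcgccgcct
P2ry12: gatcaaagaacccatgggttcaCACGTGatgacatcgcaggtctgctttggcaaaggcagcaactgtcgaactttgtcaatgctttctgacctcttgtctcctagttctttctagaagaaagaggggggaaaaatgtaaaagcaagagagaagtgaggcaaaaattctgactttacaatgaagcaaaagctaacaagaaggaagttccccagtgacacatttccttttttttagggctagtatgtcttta

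Of the ectonucleotidases, Entpd1 was lower in both efferocytic libraries by CPM and Nt5e had few counts. Entpd1 lies at chr19:40612366-40741602 on the plus strand. Its level was 89.7 CPM (non-efferocytic) and 48.1 CPM (efferocytic) in Experiment 1, and 82.6 and 57.4 CPM in Experiment 2. The groups did not overlap, with log2 ratios of -0.90 (-0.95 to -0.85) and -0.52 (-0.56 to -0.48). Per cell the ratios were -0.29 and 0.31, in opposite directions with the cells kept here. A UMI of Entpd1 was found in 57.5% and 47.8% of non-efferocytic and 51.0% and 56.4% of efferocytic cells, and in 0 of 135 of the far shallower T and NK-like cells. At 5000 UMIs per cell the shares were 36.1% and 33.3% against 21.8% and 24.8%.

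Nt5e, at chr9:88327197-88372092 on the plus strand, had 14 UMIs in each non-efferocytic library and 6 and 7 UMIs in the efferocytic libraries. This is 0.138 and 0.101 CPM against 0.0480 and 0.0451 CPM, with log2 ratios of -1.53 (-3.19 to -0.06) and -1.17 (-2.72 to 0.24). The interval of Experiment 2 held 0. Barcodes of fewer than 100 UMIs had 7.20 and 3.20 CPM in the non-efferocytic libraries, against 11.3 and 2.98 CPM in the efferocytic ones, so that free RNA held more Nt5e than the cells in all 4 libraries. Few of the UMIs in cells lay in macrophage-like clusters, with 3 of 20 in Experiment 1 and 1 of 21 in Experiment 2. In Experiment 1, 11 were in the 99 neutrophil-like cells and 6 in the 44 mesenchymal-like cells. In Experiment 2, 9 were in the 250 neutrophil-like cells, 2 in the 58 mesenchymal-like cells and 8 in the 135 T and NK-like cells, where the level was 35.7 CPM (15.4 to 70.4), above the 3.20 and 2.98 CPM of free RNA. The ratios of Nt5e between the libraries thus rest mostly on cells other than macrophages.

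Of the adenosine receptors, Adora2a also had few counts. It lies at chr10:75316877-75334784 on the plus strand and had 20 and 22 UMIs in non-efferocytic and 10 and 9 UMIs in efferocytic libraries, or 0.198 and 0.159 against 0.0800 and 0.0580 CPM. Barcodes of fewer than 100 UMIs held 0.836 to 3.29 CPM. Macrophage-like clusters held 21 of 30 UMIs in Experiment 1 and 19 of 31 in Experiment 2. A further 8 lay in the 44 mesenchymal-like cells of Experiment 1 (4.17 CPM, 1.80 to 8.22). In Experiment 2, 3 lay in the 135 T and NK-like cells (13.4 CPM, 2.76 to 39.1) and 3 in the 58 mesenchymal-like cells. Adora2b, the adenosine receptor of lower affinity, lies at chr11:62248984-62266453 on the plus strand. Its level was 1.79 CPM (non-efferocytic) and 1.32 CPM (efferocytic) in Experiment 1, and 1.68 and 1.74 CPM in Experiment 2. The groups overlapped, with log2 ratios of -0.44 (-0.75 to -0.13) and 0.05 (-0.21 to 0.31), and per cell of 0.17 and 0.89. In free RNA Adora2b was at 1.20 and 1.28 CPM in Experiment 1 and at 4.18 and 5.08 CPM in Experiment 2, above the cells in Experiment 2.

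All 10 genes passed the filter on low counts. In the fit across all genes (edgeR's quasi-likelihood test), 4 of the 10 passed the threshold as lower, 0 as higher and 6 did not pass. Among all 13869 genes tested, 19.0% passed as lower and 19.9% as higher. In 7 genes both efferocytic libraries lay below both non-efferocytic libraries by CPM, as did 40.5% of the 10813 genes with at least 1 CPM. Adora2a and Nt5e, below 1 CPM, are among the 7. Nothing is read from these counts, since the comparison was known when the genes were chosen. Per cell, 4 of the 10 had log2 ratios below 0 in both experiments, namely Gpr34, P2rx7, Adora2a and Nt5e, with P2rx7 the closest to 0. Adora2a and Nt5e rest on 6 to 22 UMIs per library. The share of all genes below 0 in both experiments on that scale was not worked out. Over all 13869 genes the median log2 fold change per cell was 0.60, and 586 were called lower. Nothing is read from this count either.

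**Figure D2:**
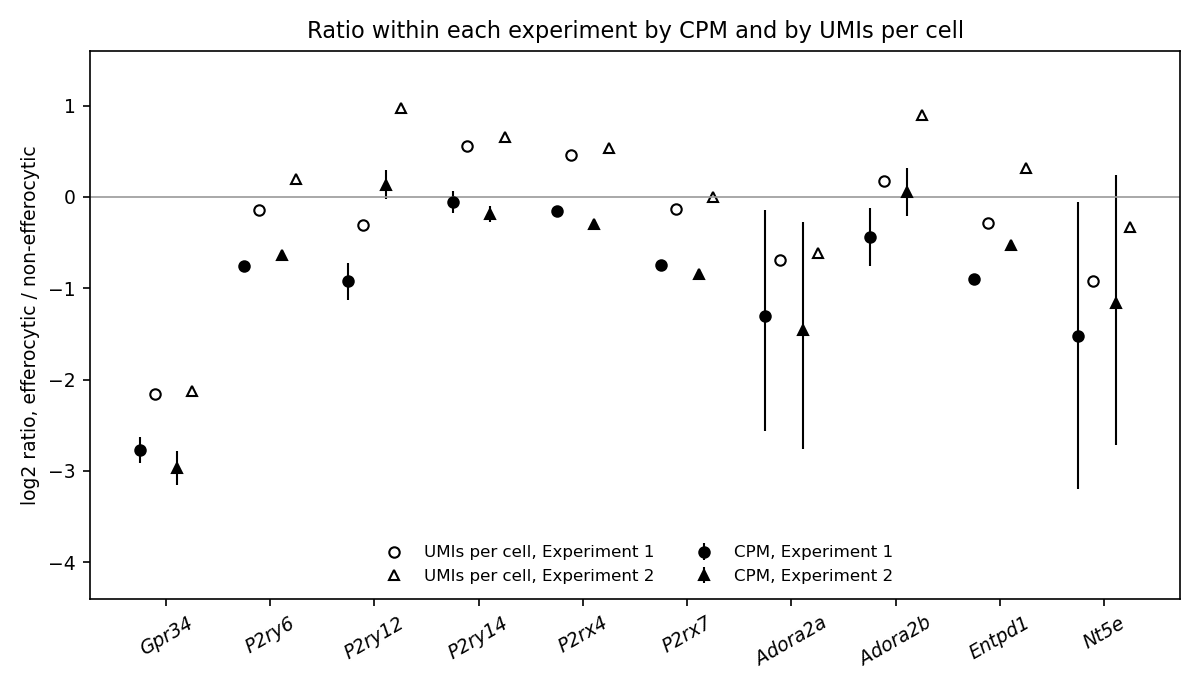
Log2 ratio of efferocytic over non-efferocytic level for the 10 genes in each experiment (circles, Experiment 1, and triangles, Experiment 2), by CPM with exact 95% count intervals (filled) and by UMIs per cell (open). Gpr34 lies below -2 on both scales, P2rx4 and P2ry14 lie below 0 by CPM and above 0 per cell, and the wide intervals of Adora2a and Nt5e rest on 6 to 22 UMIs per library.

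The cells of each experiment were clustered without the 10 genes, to see where among the BM macrophages the levels lay. A cluster is named macrophage-like by its markers and by its leading genes, and the clusters of the 2 experiments were made separately. The levels by cluster are a description, taken over both libraries together unless a group is named. Clusters are ranked among the 7 macrophage-like ones of Experiment 1 and the 9 of Experiment 2. Left out of the ranks are the neutrophil-like, mesenchymal-like, and T and NK-like clusters and the unnamed ones, 3 in Experiment 1 and 4 in Experiment 2. In both experiments Gpr34 was highest in cluster 0, with 44.0 CPM in Experiment 1 and 23.7 CPM in Experiment 2, although it was left out of the clustering. Other leading genes of this cluster in both experiments were Hpgd, an enzyme that inactivates prostaglandins, Ighm, Ednrb, Clec10a and Fcrls. Next came the cluster led by interferon-induced genes such as Cxcl10, Ifit2 and Rsad2, with 27.0 CPM (cluster 4 of Experiment 1) and 15.5 CPM (cluster 10 of Experiment 2). The lowest levels among macrophage-like clusters, 0.645 and 0.295 CPM, were in cluster 3 of each experiment, led by Cdkn1c, Npy and Plpp3. The highest level was 68.2 times the lowest in Experiment 1 and 80.4 times in Experiment 2. This includes the difference between the groups, since cluster 0 was mostly non-efferocytic and cluster 3 mostly efferocytic. Over non-efferocytic cells alone, cluster 0 was at 44.4 and 23.9 CPM and cluster 3 at 1.79 and 1.77 CPM, on 5 and 2 UMIs. In Experiment 2 cluster 8 was lower still among them, at 1.15 CPM. In both experiments the count intervals of the 2 highest clusters were separate from each other and from the other macrophage-like clusters. Of the unnamed clusters, cluster 5 of Experiment 2, led by H2-Eb1, H2-Aa and Cd74 and with all 8 macrophage markers detected, stood at 14.2 CPM (12.6 to 15.9) and overlapped cluster 10 (12.7 to 18.7). The neighbors in rank below them overlapped, from cluster 6 through 2 to 1 in Experiment 1 and from cluster 2 through 7, 1, 11 and 9 to 8 in Experiment 2.

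Within clusters Gpr34 was lower in efferocytic cells as well. Of the clusters with at least 50 cells of each library, it was lower in 8 of 8 in Experiment 1 and in 10 of 11 in Experiment 2. Free RNA was lower too, at 3.66 and 2.28 CPM in efferocytic against 13.7 and 9.05 CPM in non-efferocytic libraries. In the non-efferocytic library of Experiment 1, neutrophil-like cells were at 7.57 CPM, beside 7.47 CPM in macrophage-like cluster 2. The part of free RNA within clusters was not tested. In the remaining cluster of Experiment 2, the T and NK-like one, Gpr34 was at 0 in both libraries. In 3 of the 10 lower clusters of Experiment 2, clusters 2, 6 and 12, the efferocytic cells held 0 UMIs. By the exact interval this allows up to 3.05, 27.7 and 5.93 CPM, and in clusters 6 and 12 that is above the 10.7 and 0.855 CPM of the non-efferocytic cells. The count interval of the ratio lay below 0 in 6 clusters of Experiment 1 and in 3 of Experiment 2, and above 0 in none. In cluster 0 the level was 44.4 CPM over 3851 non-efferocytic cells and 31.8 CPM over 124 efferocytic cells of Experiment 1 (log2 ratio -0.48, interval -0.92 to -0.08). In cluster 0 of Experiment 2 it was 23.9 CPM over 5288 cells and 11.3 CPM over 96 cells (-1.08, -2.22 to -0.15), where the efferocytic value rests on 9 UMIs. In cluster 1, led by Cnrip1, Mmp27 and Fabp3, it was 14.7 CPM over 350 non-efferocytic and 5.01 CPM over 3423 efferocytic cells of Experiment 1 (-1.55, -1.94 to -1.15), and 10.2 CPM over 135 and 2.52 CPM over 4484 cells of Experiment 2 (-2.01, -2.72 to -1.20). The cells of the 2 groups lay mostly in different clusters, with cluster 0 mostly non-efferocytic and clusters 1 and 3 mostly efferocytic. The median log2 ratio over clusters with a ratio was -1.72 in Experiment 1 and -1.55 in Experiment 2, smaller in size than the -2.77 and -2.97 over all cells. The median of Experiment 2 leaves out clusters 2, 6 and 12, with 0 UMIs in efferocytic cells, which makes it smaller in size.

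**Figure D3:**
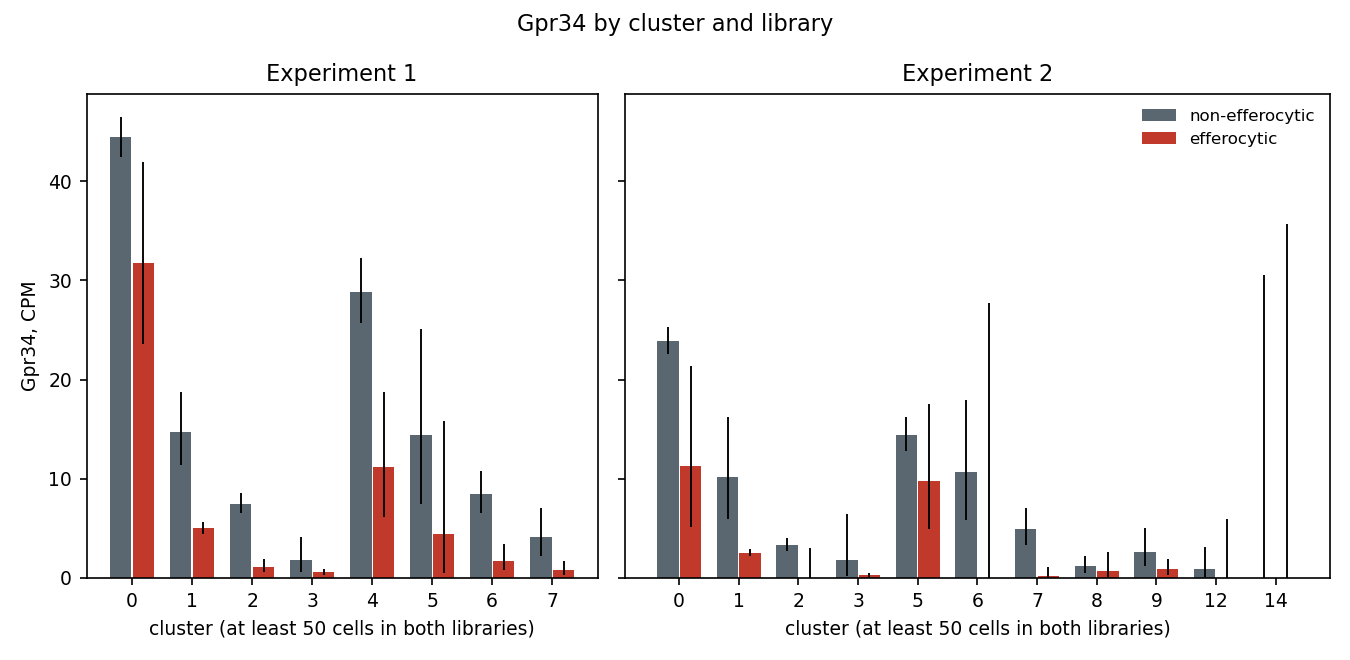
Gpr34 in CPM by cluster for non-efferocytic and efferocytic cells, in clusters with at least 50 cells of each library, with exact 95% count intervals. Every bar of efferocytic cells is below its non-efferocytic partner except in cluster 14 of Experiment 2, the T and NK-like one, where both are 0, and the tall intervals without a bar belong to clusters with few UMIs.

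The other genes with at least 1 CPM in every library varied less over the macrophage-like clusters than Gpr34 did. P2ry6, P2rx7 and Entpd1 shared their order at both ends, with the highest level in cluster 0 and the lowest in cluster 7 of Experiment 1 and cluster 9 of Experiment 2. These low clusters were led by Trib3, Phgdh and Asns, genes of the amino acid response. P2ry6 went from 64.2 to 231 CPM and from 61.2 to 201 CPM, P2rx7 from 15.9 to 67.3 and from 16.1 to 68.0 CPM, and Entpd1 from 18.1 to 116 and from 23.2 to 107 CPM. The same 3 genes were next highest in the interferon cluster in Experiment 1, where only P2ry6 and P2rx7 were so in Experiment 2. For P2rx7 in Experiment 1, the count interval of the interferon cluster (57.8 to 66.8 CPM) overlapped that of cluster 0 (64.9 to 69.9 CPM). P2rx4 varied least of the 8 genes with at least 1 CPM in every library, 1.49-fold from lowest to highest in Experiment 1 and 2.11-fold in Experiment 2. Its highest level, 245 and 230 CPM, was in the interferon cluster. Outside the macrophage-like clusters, the unnamed cluster 6 of Experiment 2, with 816 cells and a median of 1533.5 UMIs, stood higher than all of these for the 4 genes, at 352 CPM for P2ry6, 102 CPM for P2rx7, 198 CPM for Entpd1 and 470 CPM for P2rx4. The unnamed cluster 11 of Experiment 1, with 26 cells, had P2rx4 at 836 CPM (582 to 1162), P2ry6 at 287 CPM (148 to 501) and Entpd1 at 143 CPM (52.6 to 312), on 35, 12 and 6 UMIs, and 0 UMIs of P2rx7.

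P2ry14 and P2ry12 had patterns of their own. Among macrophage-like clusters, P2ry14 was highest in the interferon one, with 22.5 CPM in Experiment 1 and 30.2 CPM in Experiment 2, and its interval there was separate from that of cluster 1, the next of them, at 12.6 and 15.7 CPM. The unnamed clusters 5 and 6 of Experiment 2 stood above cluster 1, at 23.7 CPM (21.7 to 25.9) and 29.8 CPM (21.6 to 40.1). In the interferon cluster the level was 24.7 CPM over 82 efferocytic and 22.2 CPM over 887 non-efferocytic cells of Experiment 1. P2ry12 was at 9.10 CPM in the interferon cluster and 7.71 CPM in cluster 0 of Experiment 1, while in Experiment 2 clusters 1, 0 and 10 stood at 6.99, 6.87 and 6.78 CPM. Cluster 1 of Experiment 2 held 4484 efferocytic cells, in which P2ry12 was at 7.04 CPM against 4.78 CPM over its 135 non-efferocytic cells, while cluster 1 of Experiment 1 had 4.17 and 4.90 CPM. Within clusters P2ry12 was lower in 4 of 8 (Experiment 1) and 6 of 11 (Experiment 2) and higher in 4 and 4.

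Within clusters, P2ry6 was lower in efferocytic cells by CPM in 6 of 8 clusters of Experiment 1 and 11 of 11 of Experiment 2, P2rx7 in 7 and 11, and Entpd1 in 7 and 8. In the T and NK-like cluster of Experiment 2 this rests on 1 UMI against 0 for P2ry6 and 2 against 0 for P2rx7. The interval of the ratio lay below 0 in 6 and 6 clusters for P2ry6, in 2 and 4 for P2rx7, and in 7 and 4 for Entpd1. The median log2 ratios over clusters were -0.32 and -0.48 for P2ry6, -0.35 and -0.52 for P2rx7, and -0.66 and -0.27 for Entpd1. In cluster 0 itself these genes did not all follow. There P2ry6 had 230 CPM in non-efferocytic and 246 CPM in efferocytic cells of Experiment 1 (log2 ratio 0.10, interval -0.05 to 0.24), and 201 and 175 CPM in Experiment 2 (-0.20, -0.45 to 0.04). P2rx7 had log2 ratios of -0.28 (-0.60 to 0.03) and -0.41 (-0.89 to 0.03) there, and all 4 of these intervals held 0. Entpd1 in cluster 0 was lower in Experiment 1 (-0.45, -0.71 to -0.21) and higher in Experiment 2 (0.44, 0.16 to 0.71), where 96 efferocytic cells held 115 UMIs. P2rx4 was lower in 7 of 8 and 7 of 11 clusters, with median log2 ratios of -0.08 and -0.17, and its interval lay below 0 in 2 and 3 of them. It was higher in cluster 8 of Experiment 2, with 185 CPM in non-efferocytic and 246 CPM in efferocytic cells (0.41, 0.28 to 0.54).

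**Figure D4:**
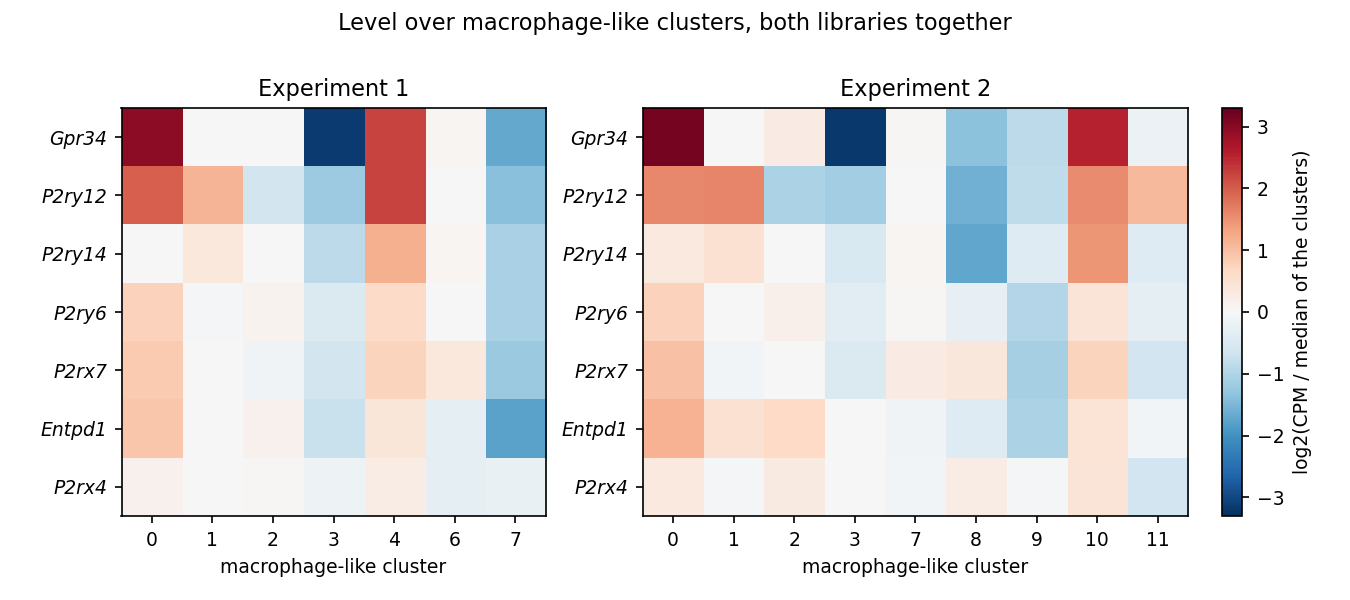
Level of 7 genes over the macrophage-like clusters of each experiment, both libraries together, as log2 of CPM over the median of the clusters (red above, blue below the median). Gpr34 spans the widest range, high in clusters 0 and 4 of Experiment 1 and 0 and 10 of Experiment 2 and low in cluster 3, while P2rx4 stays close to its median.

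The genes most like Gpr34, P2ry6 and P2rx4 over cells were sought across 44 sums of cells by cluster and library, each with at least 50 cells, after centering each gene within library, among 9000 genes. These sums share libraries and depth, and the values are descriptions. Nearest to Gpr34 were Fcgrt (Pearson r = 0.88), the Fc receptor that recycles IgG, Fcrls (0.87) and Clec4a1 (0.87). P2ry6 was most like Frmd4b (0.95), Dnajb14 (0.95) and Slc2a8 (0.95), and P2rx4 most like Pirb (0.96), Blnk (0.94) and Nckap1l (0.94). Among the 10 genes, Gpr34 was nearest to P2ry12 (0.84), whereas P2ry6 was near P2rx7 (0.94), P2rx4 (0.93) and Entpd1 (0.91). Sums of cells other than macrophages are among the 44.

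The other genes of purine signaling and metabolism were read from a list of 62 genes, written with earlier results of these data known. Of these, 43 had enough counts to be tested and 7 had no UMI in any library. The edgeR fit called 12 higher and 5 lower after efferocytosis, and 26 were not called. That is 39.5% of the 43, beside 38.9% of all 13869 genes, with a median log2 fold change of 0.11 beside -0.02. The list as a group was thus called about as often as genes in general. Without the experiment as a block 8 were higher and 2 lower, scaled to UMIs per cell 29 and 1, and without the non-efferocytic library of Experiment 1 or that of Experiment 2, and without the block, 0 of them were called, where 2 and 0 of all genes were (2999 and 3494 at an unadjusted p under 0.05).

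Of the other receptors, 2 of 3 tested P2Y genes and 1 of 1 tested relative of Gpr34 and P2ry12 were higher, 0 were lower, and the 3 tested P2X genes and 1 adenosine receptor were not called. Among all 13869 genes, 19.9% were higher and 19.0% lower, and with so few receptors nothing is read from their counts. The P2X genes P2rx1, P2rx5 and P2rx6, with 5 to 45 UMIs per library, had log2 fold changes of -1.06 (adjusted p = 0.0740), -0.98 (adjusted p = 0.171) and -0.48 (adjusted p = 0.376). P2ry2, which binds ATP and UTP and lies 21.9 kb from P2ry6 on chromosome 7, was at 4.13 and 3.47 CPM in the non-efferocytic libraries, against 5.44 and 7.08 CPM in the efferocytic ones. Its log2 fold change was 0.83 ± 0.151 (standard error) with an adjusted p of 0.00427 in edgeR, opposite in sign to the ratios of its neighbor P2ry6 by CPM. P2ry1, an ADP receptor, had a log2 fold change of 0.41 (adjusted p = 0.0271). P2ry10b, a copy of the lysophosphatidylserine receptor gene P2ry10, was at 5.33 and 6.66 CPM against 11.4 and 11.6 CPM, a log2 difference of 1.05 ± 0.119 (standard error, edgeR, adjusted p = 0.000567). P2ry10 itself had 0 UMIs in Experiment 1 and 7 and 6 UMIs in Experiment 2, and reads of the pair could be split by the counting. Gpr174, another lysophosphatidylserine receptor, had 0 to 2 UMIs per library. Of the enzymes of lysophosphatidylserine, Abhd12, which breaks it down, had a log2 fold change of 0.22 (adjusted p = 0.0962) and Abhd16a, which helps make it, 0.22 (adjusted p = 0.0630), and neither was called. The adenosine receptor Adora3, at 1.59 and 1.54 against 1.16 and 0.973 CPM, was not called (-0.45, adjusted p = 0.0742).

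Among the ectoenzymes and their relatives, 4 of 12 tested were higher and 3 lower, or 58.3% called beside 38.9% of all genes, with a median log2 fold change of -0.26. Entpd5 (log2 fold change 0.57), Entpd7 (0.47) and Entpd6 (0.44), relatives of Entpd1 that act mostly inside the cell or are secreted, were higher, each with both efferocytic above both non-efferocytic libraries. Entpd6 was not called without the block, with DESeq2 or by library totals. Bst1, a surface enzyme that uses NAD, was higher as well (0.50), though its levels of 7.87 and 10.9 CPM in the non-efferocytic libraries, against 10.4 and 14.1 CPM in the efferocytic ones overlapped between the experiments, and it was not called without the block (adjusted p = 0.147). Enpp4 was lower, with 1.80 and 1.56 CPM against 0.456 and 0.296 CPM (log2 fold change -2.07, standard error 0.217, edgeR, adjusted p = 0.000394). Acpp, a phosphatase that can make adenosine from AMP, and Cd38, which uses NAD, were the other lower ones, both below 1 CPM. Enpp1, which makes AMP from ATP, was at 28.6 ± 3.34 CPM in non-efferocytic and 28.6 ± 1.78 CPM in efferocytic libraries (SD, n = 2) and was not called.

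Of the 13 genes of adenosine and purine salvage that were tested, 4 were higher and 0 lower, or 30.8% called, less than the 38.9% of all genes, with a median log2 fold change of 0.19. Adk, the kinase that turns adenosine into AMP, had the largest change of these, from 15.6 and 18.4 CPM to 25.3 and 36.1 CPM, a log2 difference of 0.94 ± 0.0854 (standard error, edgeR, adjusted p = 0.000220). Nt5c2 (0.45), Aprt (0.43, not called without the block) and Xdh (0.35) were the others. Ada, which deaminates adenosine, was not called, at 7.42 and 7.32 CPM against 5.89 and 5.24 CPM (-0.30, adjusted p = 0.0676). In transport and ATP release, Slc17a9, which loads ATP into vesicles, was higher (0.54), but not called with DESeq2 (adjusted p = 0.0636). Gja1, the hemichannel protein connexin 43, was lower, with 3.51 and 2.88 CPM against 1.34 and 1.68 CPM (-0.97, adjusted p = 0.00372), a call lost per cell. Gja1 is also a gene of mesenchymal cells, whose 7 markers summed to 146 and 122 CPM in the non-efferocytic libraries, against 46.6 and 52.9 CPM in the efferocytic ones, and over macrophage-like clusters alone its log2 fold change was -2.26 (adjusted p = 0.00341). Lrrc8a, a volume-regulated channel, was lower with TMM (-0.26), but was not called lower per cell, where Enpp4 was the only purine gene so called. Panx1, the channel through which dying cells release ATP, was not called (0.0042, adjusted p = 0.975).

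**Figure D5:**
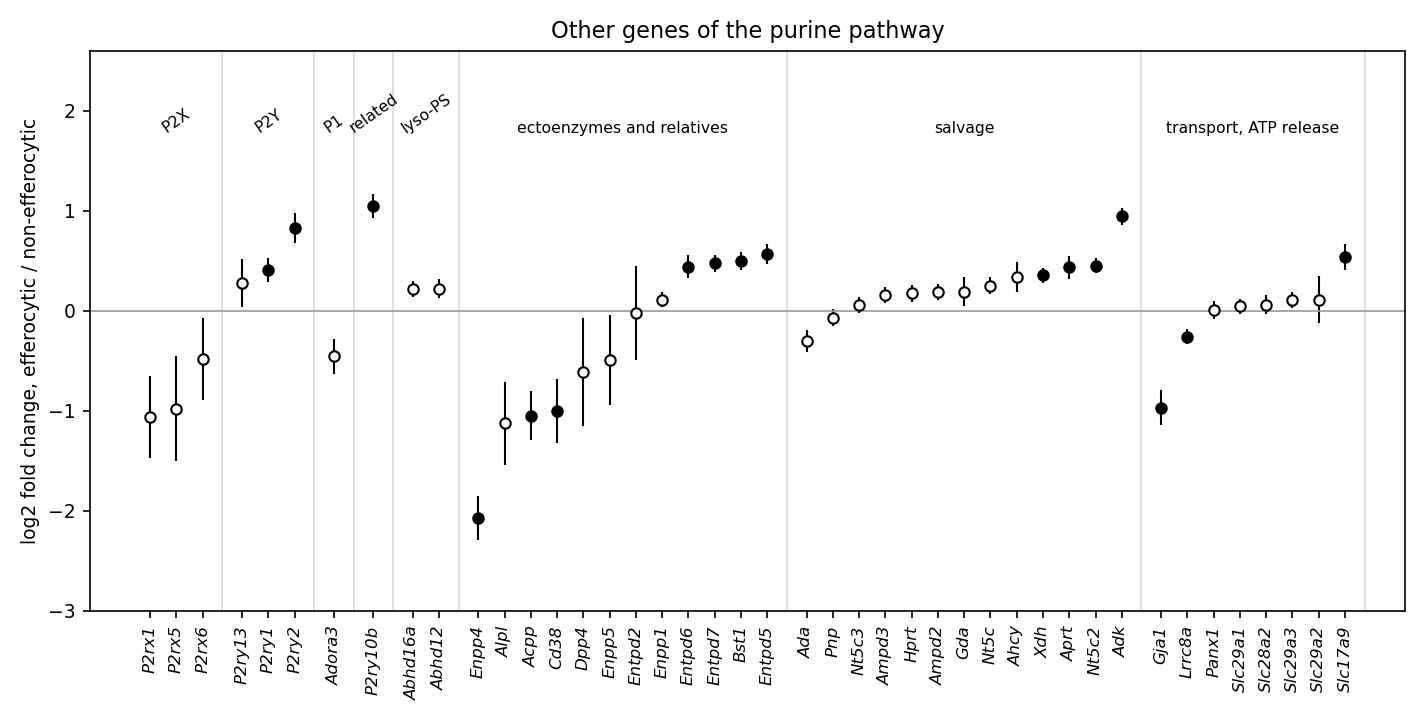
Log2 fold change (efferocytic over non-efferocytic, edgeR, bars are standard errors) of the 43 other purine genes tested, grouped by role, with filled points for genes called at an adjusted p of 0.05 and open points for the rest. P2ry10b and Adk lie highest near 1, and Enpp4 lowest at -2.07.

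Since Gpr34 and P2ry12 are used as marker genes of microglia, 10 other such genes were read from the same fit, as a list also written with earlier results known. Of the 8 tested, 1 was higher, 5 were lower and 2 were not called, 75% of the list beside 38.9% of all genes, with a median log2 fold change of -0.87. Cx3cr1, the fractalkine receptor, was at 4.74 and 2.67 CPM in the non-efferocytic libraries, against 0.600 and 0.271 CPM in the efferocytic ones (log2 fold change -3.01, standard error 0.183, edgeR, adjusted p = 5.34e-05). Fcrls went from 23.8 and 12.3 CPM to 5.54 and 2.99 CPM (-1.96, adjusted p = 2.60e-05), and Olfml3 from 9.51 and 5.72 CPM to 4.10 and 2.18 CPM (-1.19, adjusted p = 0.000375), a call lost without the block and per cell. Like Gpr34, these 3 genes had their highest level in the non-efferocytic library of Experiment 1. Siglech, also lower, was below 1 CPM. Cx3cr1 is also a gene of monocytes, and the 5 monocyte markers, summed above, were lower in both experiments. Over macrophage-like clusters alone, the log2 fold changes were -2.98 for Cx3cr1, -2.06 for Fcrls and -1.36 for Olfml3. Beyond these values, the part of monocytes in this result was not tested. Selplg was lower by CPM, 131 and 130 against 98.5 and 94.4 CPM (-0.33, adjusted p = 0.0171), but had a log2 fold change of 0.29 per cell, where it was not called, as it was not without the block. Tmem119, the other gene not called besides P2ry13, was at 1.04 and 0.643 against 0.608 and 0.438 CPM.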

How the data were processed

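Each of the 4 libraries was made with the 10X Genomics 3′ kit v3.1. Reads were aligned by the authors to mm10 in Cell Ranger (3.0.0 per the submitters' processing notes, 3.1.0 in the file headers of Experiment 2). The deposited values are raw UMI counts for every gene and barcode, with no cells filtered out. Whether strand was used in counting is not given in the sources used here.

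The limits of the study's methods were used for cells (200 or more genes, 1000 or more UMIs, and mitochondrial UMIs of 10% or less). Applied to all barcodes they kept 6695 to 13411 cells per library, more than the study lists for each, and the Cell Ranger rule, an alternative, kept 6158 to 10615. UMIs were summed per gene and library, since cells are not replicates. Libraries of a group came from separate experiments. The sums were compared in edgeR 4.0.16 by its quasi-likelihood test, with TMM scaling, the filterByExpr filter and the experiment as a block. Over the 13869 genes left, p-values were adjusted after Benjamini and Hochberg, and genes under 0.05 are called. The experiment number of the labels pairs the libraries, and their deviations from the group means had r = 0.67 across 7097 genes. The fit was tested on simulated counts with known changes. The 10 genes were given as CPM with exact intervals of their counts. They were part of the fit, but only how many passed is given, and nothing is read from it.

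The cells of each experiment were clustered with 20 principal components of 5000 genes, the 10 genes left out (Leiden, resolution 0.5, scanpy 1.11.5). Clusters were named by markers detected in at least 25% of their cells, a limit set after the data were seen. Doublets were not removed. The share of cells with a gene at 5000 UMIs is the share expected on drawing that many UMIs from each cell, leaving out 1099 and 3404 non-efferocytic and 544 and 505 efferocytic cells with fewer. Free RNA was measured in barcodes of fewer than 100 UMIs.

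The 10 genes, the lists and the alternatives were chosen with earlier results of these data known. Beyond the 10, the text names up to 12 called purine genes that averaged 1 CPM or more, by size of change, the called microglia-associated genes above that level, and the 3 genes most like Gpr34, P2ry6 and P2rx4. Further genes of the lists were named after their values were seen, and some listed genes are counted but not reported by name here. The lists of dendritic, B, T and NK, mast and basophil, erythroid and megakaryocyte, endothelial and cycling cells summed to at most 0.369, 4.39, 3.51, 0.954, 41.1, 6.46 and 67.0 CPM. Alternatives were no block, DESeq2 1.42.0, other scalings, filters and sets of cells, and each library left out. Removal of barcodes shared between libraries was added after the data were seen. Positions of genes came from GENCODE vM21 (GRCm38).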

Additional observations from a re-analysis of the deposited data

Results flagged for a closer look

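P2ry12 had opposite directions in the experiments, with a log2 ratio of -0.92 in Experiment 1 and 0.13 in Experiment 2, where both efferocytic and non-efferocytic BM macrophages were 1 library each. Adora2b did the same, with -0.44 and 0.053. The difference between the experiments was not tested for either gene, and the intervals of the Experiment 2 ratios held 0.

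Adora2a was found in barcodes of fewer than 100 UMIs, which the comparison of cells does not use, at no less than 0.836 CPM in any library, against at most 0.198 CPM in cells. Nt5e was found in them at no less than 2.98 CPM, against at most 0.138 CPM in cells.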

How the results depend on the processing

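The calls rest on 2 libraries per group. Without the experiment as a replicate block 1285 of all genes were higher and 1073 lower, and of the other purine genes 8 were higher and 2 lower, instead of 12 and 5. DESeq2 called 1418 of all genes lower and 2 purine genes lower. Library totals gave 9 lower purine genes. UMIs per cell gave 6921 higher and 586 lower of all genes and 29 and 1 of the purine genes, so that 92.2% of calls were higher instead of 51.2%, against 33.3% by library totals. A mean of at least 10 CPM left 1473 higher and 1553 lower of all genes and 5 and 1 of the purine genes, with fewer genes tested. Aprt was still tested there but not called (edgeR, adjusted p = 0.0501). With 1 library and the block left out, counts ran from 0 to 1658 higher and 0 to 1275 lower of all genes (630 and 574 when efferocytic cells of Experiment 2 were dropped) and from 0 to 7 higher and 0 to 3 lower of the purine genes. In those fits a lone library is assumed to vary like the other group. Apart from construction, the cause was not tested.

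Per cell, the mean log2 ratio turned to 0.028 for P2ry6, 0.50 for P2rx4 and 0.014 for Entpd1, and it was -2.14 for Gpr34, 0.60 for P2ry14, -0.069 for P2rx7, -0.65 for Adora2a, 0.53 for Adora2b and -0.62 for Nt5e. Selplg turned to 0.29. All values per cell rest on the main set of cells, and other sets were not tried on that scale. With TMM-scaled CPM the values were -0.59 (P2ry6), -0.014 (P2ry14), -0.12 (P2rx4), -0.69 (P2rx7) and -1.27 (Adora2a). Adora2a was at -0.96 over macrophage-like clusters alone, and Nt5e at -1.82 without cells with a UMI of the 8 epithelial genes and -2.34 without shared barcodes. P2ry12, opposite in the experiments, turned from -0.39 to 0.33 per cell. Leaving out Experiment 1 gave 0.13 for P2ry12 and 0.053 for Adora2b. The other 69 values of the 10 genes with both experiments kept their sign and moved by less than the spread between the experiments. The depth limits Adora2a and Nt5e, with 6 to 22 UMIs per library.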
